A study of Homo sapiens with 16 samples.

Results

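The folding machinery of the endoplasmic reticulum (ER) and the stress response that controls it were followed in HAP1 cells through 36 genes. The members were found by their symbols in a fixed list of ER chaperones, degradation factors and stress sensors, among 33121 entries of the count table. By role they comprised 10 lumenal chaperones and co-chaperones, 8 genes of the lectin cycle and of disulfide formation, 5 stress sensors and regulators, 10 genes of ER-associated degradation, and 3 of translocation and export. The expression filter was passed by 35 of them. The exception was DERL3, with 0 or 1 counts in every library. A numbered further entry of that symbol, DERL3-2, held 149 to 301 counts, and what sets the entries apart is not given in the sources used here.

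Proteins entering the ER are folded by chaperones, glycosylated, and linked by disulfide bonds, and those that fail are returned to the cytosol for degradation. When unfolded proteins accumulate, the membrane sensors IRE1 (gene ERN1), ATF6 and PERK (gene EIF2AK3) are activated. IRE1 splices the XBP1 mRNA, ATF6 is cut in the Golgi to release a transcription factor, and PERK phosphorylates eIF2 alpha, which favours translation of ATF4. The transcription factors so produced raise the genes of chaperones and degradation factors, HSPA5 being the usual marker.

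HAP1 is a near-haploid, adherent human line derived from a chronic myeloid leukaemia line. The 16 libraries formed 4 groups of 4. The SLC30A10 knockout carries the genotype SLC30A10_delta, a deletion of the gene for a manganese exporter, and its control the genotype SLC30A10+/+. The second knockout carries a deletion of another gene and is compared with control cells of that experiment. The controls of both experiments share a cell line identifier, and each deletion has its own, without a stated number of clones. All cells were kept in serum-supplemented IMDM medium, and the labels name no treatment, so levels here are those of cultures without a labelled stress. The labels do not say that the libraries of a group came from separate cultures, so p-values measure the spread between these libraries, which may be technical.

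Library totals ran from 16058856 to 16648151 counts, and the common biological coefficient of variation was 0.0497. SLC30A10 itself had 3 to 11 counts in its knockout and 6 to 9 in its control (p = 0.686 by a two-sided exact permutation test, which can reach 0.0286 at the lowest), so its RNA does not show the deletion and the group names follow the labels. Of the genes read as a check of the cell line, VIM, KRT18, BCR and ABL1 were expressed in every library, whereas PTPRC, SPI1, GATA1, CD33 and CD3E, genes of blood cells, had at most 3 counts. The SLC30A10 knockout libraries also lacked the RNA of FASTKD2, a protein of mitochondrial RNA granules, with 1 to 4 counts against 917 to 1024 in their control, so they differ from it in more than the labelled gene. FASTKD2 had 517 to 623 counts in the second knockout and 859 to 927 in the second control. The common spread between libraries limits what could be seen. On simulated counts for the SLC30A10 comparison, with 15569 genes, 41 of 50 genes lowered by 0.5 on the log2 scale were recovered. Smaller changes were not simulated. The median absolute log2 fold change of the members in that comparison was 0.12, so this rate does not carry over to most of them.

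Promoter sequence was looked at first, for elements associated with the stress response. RefSeq promoter windows (assembly GRCh38.p14, 250 bases before to 50 after an annotated start) were matched for 32 of the 36 members, the others being PDIA3, SEC24D, DERL1 and DERL3. The ER stress element ERSE, searched as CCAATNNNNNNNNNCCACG on both strands, was present in the windows of 8 of the 32 (25.0%), against 0.0769% of 35116 windows and 0.0916% of genes. The shorter element ERSE-II, searched as ATTGGNCCACG, was present in HERPUD1, HYOU1 and SDF2L1 (9.38%), against 0.0541% of windows and 0.0696% of genes. A CCAAT box alone, which every ERSE contains, was found in 28 of the 32 (87.5%), in 34.6% of windows and in 39.7% of genes. The UPRE core TGACGTGG was found in HYOU1 only among the members, overlapping its upstream ERSE-II. It was present in 0.729% of windows and 0.927% of genes. The ATF4-type site TGATGNAA was found in HERPUD1 only among the members, in 3.62% of windows and in 4.46% of genes. Neither an ERSE nor an ERSE-II was present for 21 of the matched members. The members were chosen as genes of this response, so their larger share of elements was built into the list and tests nothing. These matches describe the letters in the windows and are not evidence of binding.

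The 3 promoters below belong to HSPA5, the standard marker of the response, and to XBP1 and HERPUD1, whose levels differed most between the knockouts among carriers of an element. Each is the stretch of 200 bases before the annotated start, 5′ to 3′ on the strand of the gene, at chr9:125241344-125241543 (minus), chr22:28800570-28800769 (minus) and chr16:56931942-56932141 (plus) of GRCh38.p14. Capitals mark the ERSE in HSPA5 and XBP1. In HERPUD1 they mark, in order, the ATF4-type site on the opposite strand and the ERSE-II.
HSPA5: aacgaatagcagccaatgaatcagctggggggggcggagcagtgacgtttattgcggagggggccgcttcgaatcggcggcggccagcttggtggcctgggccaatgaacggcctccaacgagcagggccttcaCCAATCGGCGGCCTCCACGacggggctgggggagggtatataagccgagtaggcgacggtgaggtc
XBP1: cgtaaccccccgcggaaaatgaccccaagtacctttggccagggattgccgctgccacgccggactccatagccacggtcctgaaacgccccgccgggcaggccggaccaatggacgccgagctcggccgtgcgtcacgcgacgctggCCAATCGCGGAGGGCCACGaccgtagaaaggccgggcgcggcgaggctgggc
HERPUD1: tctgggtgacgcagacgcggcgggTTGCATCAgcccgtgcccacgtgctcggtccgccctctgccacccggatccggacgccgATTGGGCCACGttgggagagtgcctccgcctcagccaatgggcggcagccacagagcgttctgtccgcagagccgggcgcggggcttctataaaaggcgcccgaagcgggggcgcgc

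The elements of the other carriers are shown to compare their spacing and orientation, read on the strand of the gene, with the fixed bases in capitals. An element that begins with CGTGG lies on the opposite strand, as in CALR, CRELD2, ERO1LB, HYOU1, SDF2L1 and the downstream match of HSP90B1. Positions count from the annotated transcription start, with bases before it negative. HSP90B1 and HYOU1 held 2 elements each, and CANX held 1 that falls in the windows of 3 neighbouring annotated starts.
ERO1LB ERSE at -243 to -225: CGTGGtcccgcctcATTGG
PDIA6 ERSE at -86 to -68: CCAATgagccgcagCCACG
CANX ERSE at -151 to -133: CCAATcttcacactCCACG
HSP90B1 ERSE at -194 to -176: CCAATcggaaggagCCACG
HSP90B1 ERSE at -89 to -71: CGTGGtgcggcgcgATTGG
CALR ERSE at -225 to -207: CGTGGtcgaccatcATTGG
CRELD2 ERSE at -80 to -62: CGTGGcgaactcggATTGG
HYOU1 ERSE-II at -185 to -175: CGTGGtCCAAT
HYOU1 ERSE-II at -79 to -69: CGTGGtCCAAT
SDF2L1 ERSE-II at -188 to -178: CGTGGaCCAAT

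**Figure D1:**
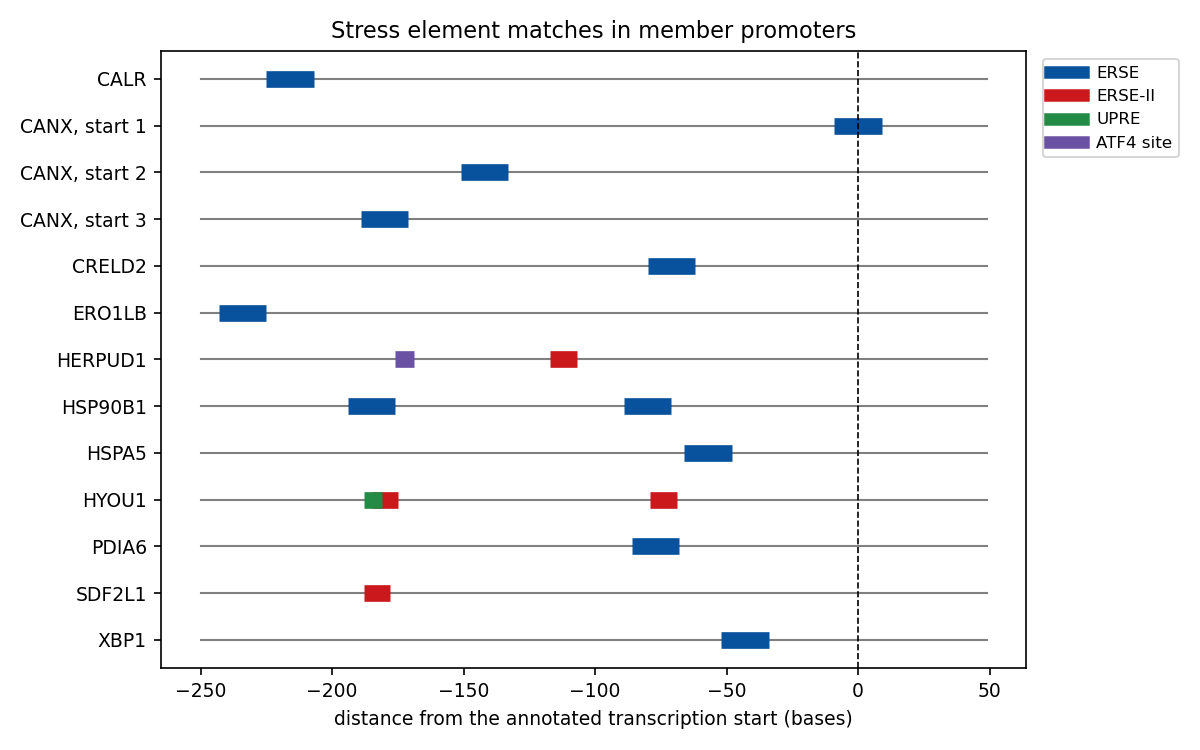
Positions of stress element matches in the promoter windows of the 11 members that hold an ERSE or ERSE-II, by distance from the annotated transcription start in bases (grey line: window searched). Elements lie between -243 and 9, and the ERSE of HSPA5 spans -66 to -48.

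Per kilobase of annotated exon, the members covered a wide range. Averaged over the 4 groups, CALR had the highest level at 342 CPM per kb, with CPM the counts per 1000000 of the scaled library size, followed by HSP90B1 at 278, CANX at 181, HSPA5 at 115 and PDIA3 at 114. ERN1 had the lowest level of the tested members at 1.44 CPM per kb, preceded by EIF2AK3 at 2.58, SEC24D at 2.99 and DERL2 at 3.11. Ranks 1 to 8 were held by lumenal chaperones and by genes of the lectin cycle and disulfide formation. The highest gene of ER-associated degradation, OS9, was at rank 14. The lower part of the range was mixed, since the lumenal DNAJB9, at 4.97, and SIL1, at 3.89, lay near its lower end.

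Each knockout was then compared with its own control set to ask whether the ER response moved when the gene was deleted. An adjusted p under 0.05 over all 15569 tested genes (edgeR quasi-likelihood test, Benjamini-Hochberg) was taken as the threshold. In the SLC30A10 knockout 17 of the 35 tested members passed, 4 higher and 13 lower, which is 48.6%, where 41.4% of all tested genes passed, 21.2% higher and 20.2% lower. The median log2 fold change of the members was -0.08, against -0.0048 over all genes. The changes were small, and SEC24D alone among the members reached 1.5-fold, a size that 10.4% of all genes reached at that threshold. Libraries of knockout and control did not overlap for 16 members, and for 38.3% of all genes. The count was 9 without knockout library 1, 11 without knockout library 3 and 10 without control library 3. The second knockout gave 4 of 35 members past the threshold, 2 higher and 2 lower, or 11.4%, where 13.7% of all genes passed, 6.67% higher and 7.03% lower. The members' median there was -0.07, against -0.0024 over all genes. The libraries did not overlap for 4 members and for 16.3% of all genes. At 1.5-fold or more there were 0 members (edgeR quasi-likelihood) and 4.27% of all genes. The count was 2 without knockout library 2, 8 without knockout library 3, and 2 without libraries 2 and 4, an omission chosen after seeing the data. In bulk RNA, fewer cells expressing a gene and less RNA per cell cannot be told apart.

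**Figure D2:**
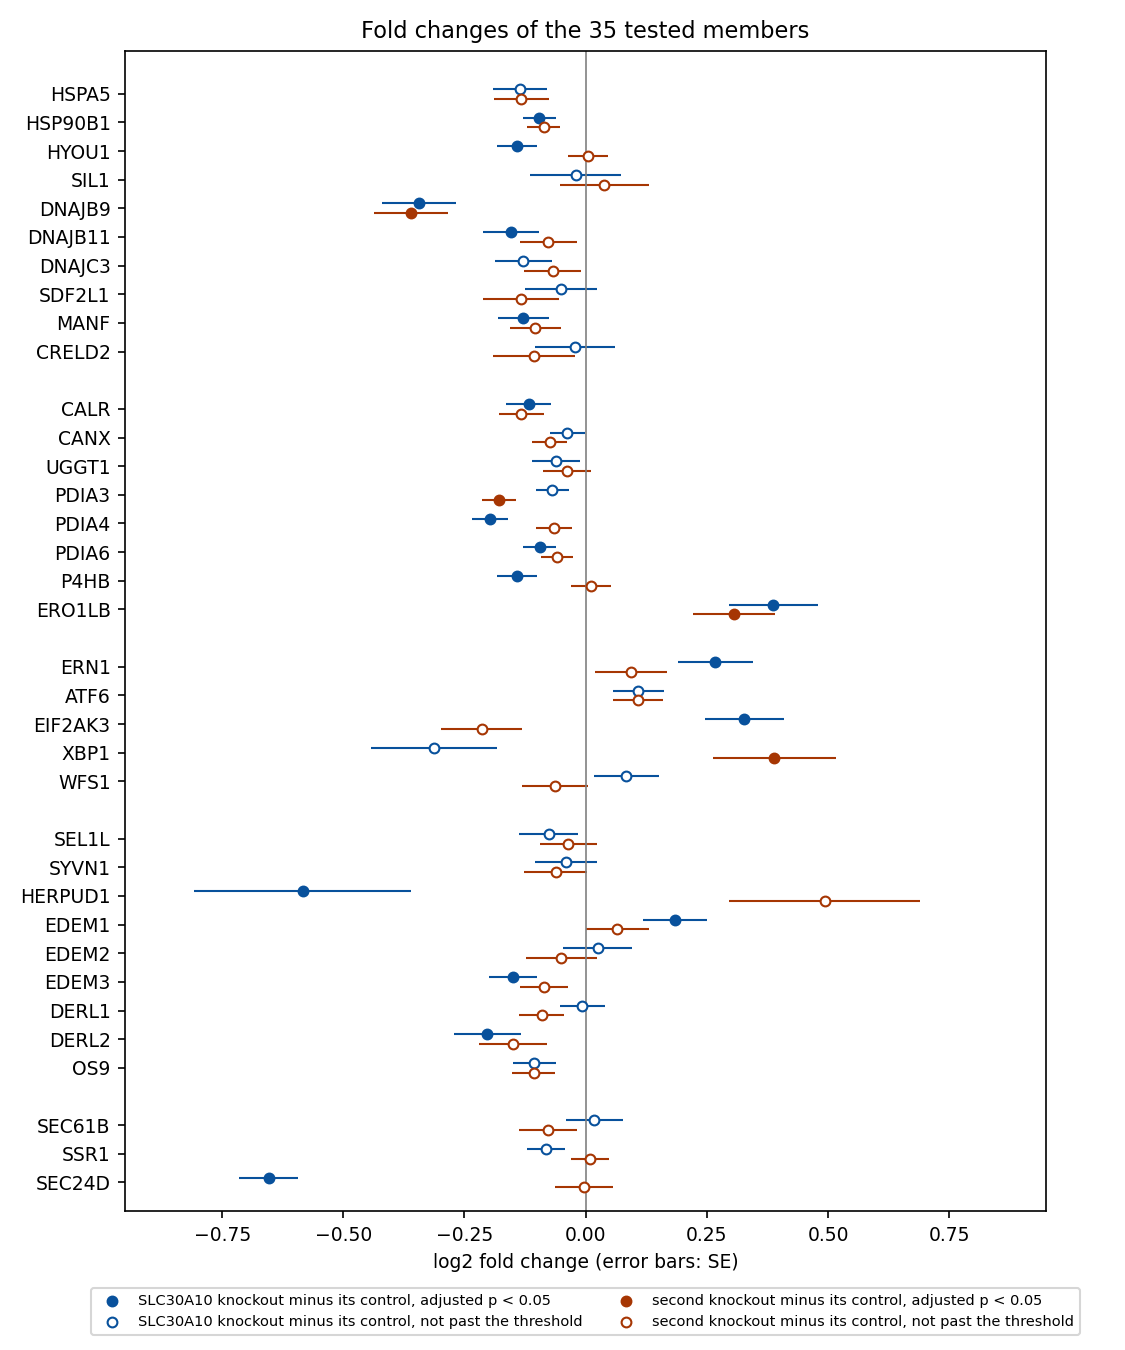
Log2 fold change of each of the 35 tested members in the SLC30A10 knockout (blue) and the second knockout (orange), each against its own control set, with SE bars, in 5 blocks by role; filled points passed an adjusted p of 0.05. In the top block all 10 blue points lie left of 0, and SEC24D and HERPUD1 lie furthest out.

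Of the 10 chaperones of the ER lumen, 5 fell by a small amount in the SLC30A10 knockout and 0 rose, where 20.2% of all genes fell and 21.2% rose. All 10 had a log2 fold change below 0, from -0.34 for DNAJB9 to -0.02 for SIL1 with a median of -0.13. HSP90B1, HYOU1, DNAJB9, DNAJB11 and MANF passed, and HSPA5, SIL1, DNAJC3, SDF2L1 and CRELD2 did not. Against both control sets pooled HSPA5, DNAJB11 and MANF lay above 0. The summed level of all 10 ran from 2334 to 2413 CPM in the knockout libraries and from 2440 to 2731 CPM in the control libraries, without overlap. HSP90B1 alone held 1282 to 1320 CPM and 1351 to 1420 CPM of these sums, so they mostly follow that gene. For the second knockout 8 of the 10 lay below 0, with a median of -0.10, and DNAJB9 alone passed. The changes in the knockouts differed past the threshold for 0 of the 10 (edgeR quasi-likelihood), where 31.3% of all genes differed. By DESeq2 the count was also 0, and at an unadjusted p under 0.05 it was 1, HYOU1 at -0.15 ± 0.06.

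HSPA5, the Hsp70 chaperone of the ER lumen known as BiP, was at 475, 512, 495 and 524 CPM in libraries 1 to 4 of the SLC30A10 knockout. Its control libraries held 541, 545, 622 and 496 CPM. Library 3 of that control was the highest and library 4 lay within the range of the knockout, so the groups overlapped. This gave a log2 fold change of -0.14 ± 0.06 (SE) and an adjusted p of 0.0558 by edgeR. Without control library 3 it was -0.07 with an adjusted p of 0.288. It passed without control library 4 (-0.19, adjusted p 0.00895) or knockout library 4 (-0.16, adjusted p 0.0482). At nearly the same fold change it also passed with library totals (adjusted p 0.0360), no filter on low counts (0.00448), the replicate number as a block (0.0403) or only the 8 libraries compared (0.0308), so its call depended on the setting. The second knockout held 359, 328, 386 and 345 CPM and its control 365, 370, 403 and 415 CPM. These groups overlapped too, with a log2 fold change of -0.13 ± 0.06 and an adjusted p of 0.131. That one passed with no filter (0.0130), with pooled controls (-0.38, adjusted p 1.09e-06) and without knockout library 3 (-0.17, 0.0434). The larger difference for HSPA5 was between the experiments. Every library of the SLC30A10 experiment lay above every library of the second, and the control sets differed by 0.50 ± 0.06 on the log2 scale with an adjusted p of 2.19e-07 by edgeR.

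HSP90B1, the Hsp90 of the ER known as GRP94, was among the most abundant members. It stood at 1292, 1320, 1282 and 1303 CPM in the SLC30A10 knockout and at 1395, 1387, 1420 and 1351 CPM in the control, so that the groups did not overlap. Its log2 fold change was -0.10 ± 0.03, with an adjusted p of 0.0241 by edgeR. With a library left out the call held in 4 of 8 fits, at adjusted p from 0.0139 to 0.0571. The second experiment gave 1306, 1208, 1210 and 1184 CPM in the knockout and 1342, 1291, 1287 and 1292 CPM in the control. Knockout library 1 lay inside the range of the control, and the log2 fold change of -0.09 ± 0.03 had an adjusted p of 0.0906, and without that library it was -0.11 with an adjusted p of 0.0249. HYOU1, a large Hsp70-type protein that exchanges the nucleotide of BiP, fell from 266 ± 16.2 to 241 ± 4.08 CPM (SD, n = 4) in the SLC30A10 knockout. In the second experiment its means were 232 CPM in both groups.

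DNAJB9, a J-domain partner of BiP that also restrains IRE1, fell in both knockouts by about the same amount. Knockout libraries had 12.1, 11.9, 12.3 and 12.6 CPM for SLC30A10 and 12.2, 12.2, 13.1 and 12.6 CPM in the second experiment. The respective controls had 16.5, 13.7, 16.95 and 14.998 CPM and 16.6, 16.1, 16.9 and 14.8 CPM. All knockout libraries lay below all control libraries in both experiments. The log2 fold changes were -0.34 ± 0.08 with an adjusted p of 0.000671 and -0.36 ± 0.08 with an adjusted p of 0.00127 by edgeR. The control sets did not differ past the threshold for this gene, at -0.05 ± 0.07. Both falls kept their direction and stayed past the threshold in each fit with another setting or with a library left out, and the second without libraries 2 and 4 (adjusted p 0.0265).

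Other co-chaperones moved less. DNAJB11 (ERdj3) fell by 0.15 ± 0.06 and MANF, a cofactor of BiP, fell by 0.13 ± 0.05 on the log2 scale in the SLC30A10 knockout. With a library left out the call of DNAJB11 held in 4 of 8 fits and that of MANF in 2 of 8. MANF also did not pass with DESeq2 (adjusted p 0.0540), at a mean count of at least 50 (0.0540) or with the replicate number as a block (0.0620). Both were smallest without control library 3, at -0.08 with an adjusted p of 0.202 and -0.07 with an adjusted p of 0.254. DNAJC3 (p58IPK) was at -0.13 with an adjusted p of 0.0796. SDF2L1, which works with DNAJB11, CRELD2, a stress-induced secretory protein, and SIL1, a nucleotide exchange factor of BiP, were between -0.05 and -0.02. None of these 6 passed in the second knockout.

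**Figure D3:**
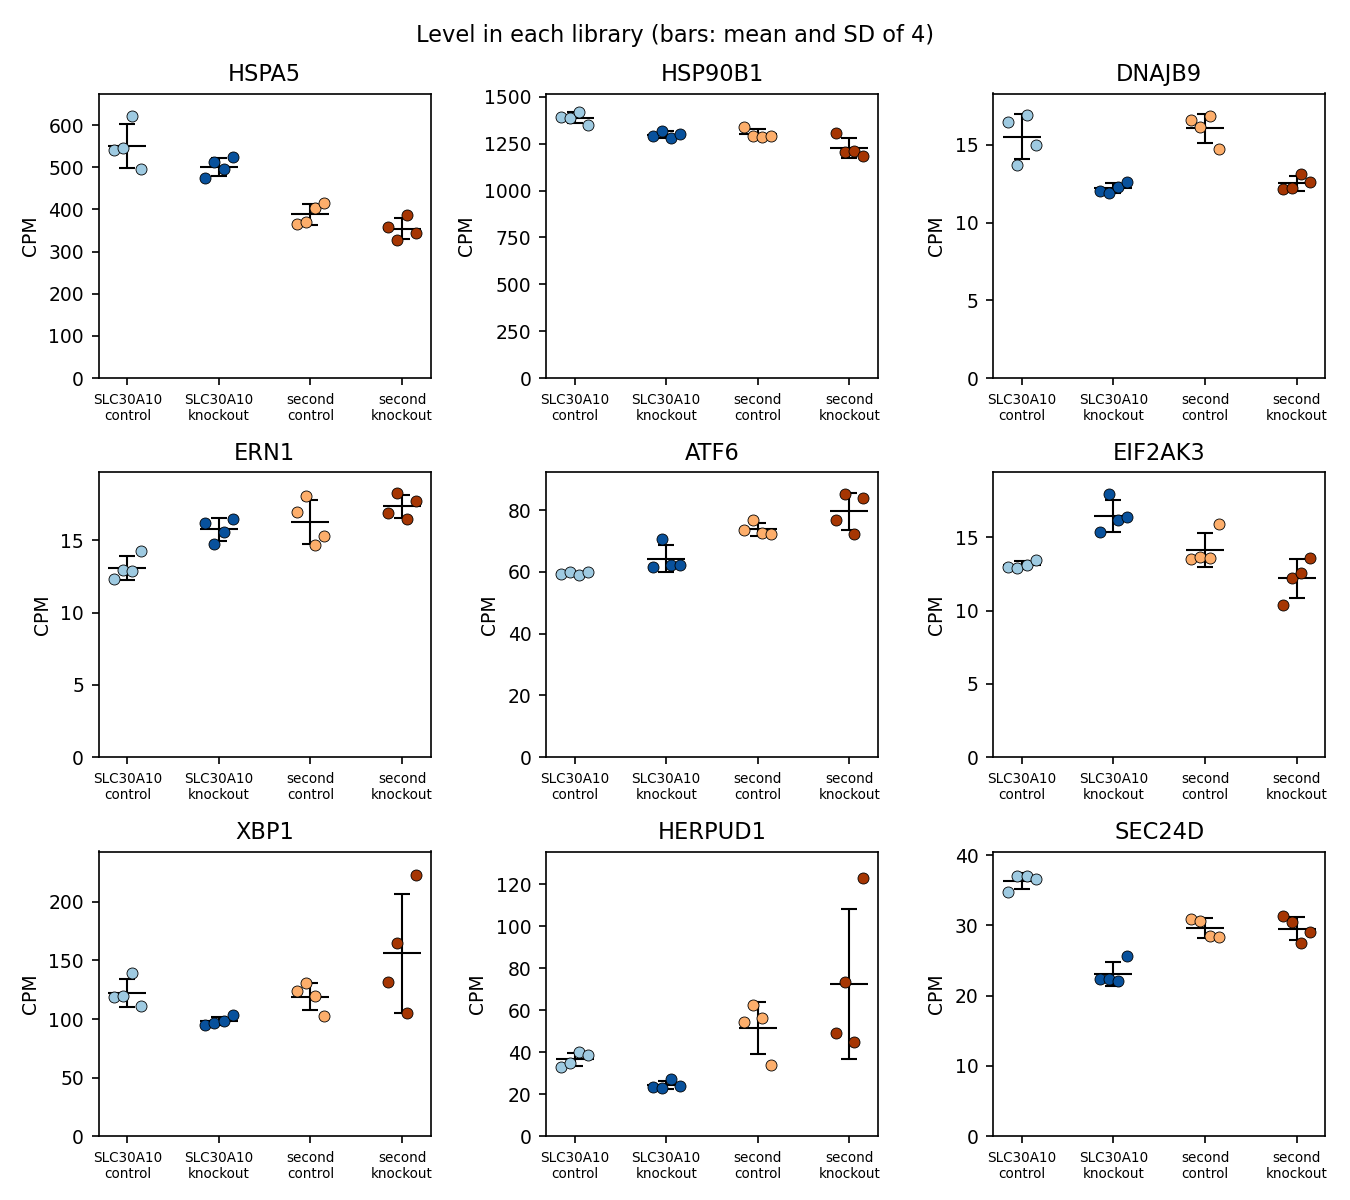
Level in CPM of 9 members in each of the 16 libraries, with the mean and SD of the 4 libraries of a group as bars; every axis starts at 0. DNAJB9 is lower in both knockouts, HSPA5 separates the experiments, SEC24D is lowest in the SLC30A10 knockout, and XBP1 and HERPUD1 spread widely in the second knockout.

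Among the lectin chaperones and disulfide enzymes, 4 of 8 fell and 1 rose in the SLC30A10 knockout, where 20.2% of all genes fell and 21.2% rose. PDIA4 fell by 0.20 ± 0.04 (adjusted p 0.000125), P4HB, the principal protein disulfide isomerase, fell by 0.14 ± 0.04, CALR, calreticulin, fell by 0.12 ± 0.05 and PDIA6 fell by 0.09 ± 0.03 on the log2 scale (edgeR quasi-likelihood). PDIA4 had 248 to 252 CPM in the knockout and 277 to 308 CPM in the control. CALR had 910 to 933 CPM against 945 to 1099 CPM, and its call held in 2 of 8 fits with a library left out, being -0.07 with an adjusted p of 0.210 without control library 3. For PDIA6 the call held in 6 of 8, and for PDIA4 and P4HB in all 8. CANX, the membrane-bound partner of CALR, was at -0.04, and UGGT1, which tags unfinished glycoproteins for a further round, at -0.06, and neither passed. PDIA3, the isomerase that works with CALR and CANX, was at -0.07 with an adjusted p of 0.120 in this knockout. It fell by 0.18 ± 0.03 on the log2 scale in the second knockout, where its 428 to 443 CPM lay below the 480 to 513 CPM of the control and the adjusted p was 0.000572. The changes of PDIA3 in the knockouts did not differ past the threshold (0.11 ± 0.05, adjusted p 0.0916).

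ERO1LB, an oxidase that regenerates the disulfide isomerases, was the member of this group that rose, and it rose in both knockouts. It went from 13.2, 13.7, 9.33 and 14.1 CPM to 16.2, 16.4, 17.7 and 15.4 CPM in the SLC30A10 experiment. In the second experiment it went from 18.4, 17.1, 17.4 and 17.3 CPM to 22.4, 23.1, 20.8 and 20.6 CPM. The groups did not overlap in either. The log2 fold changes were 0.39 ± 0.09 (adjusted p 0.00131) and 0.31 ± 0.08 (adjusted p 0.0144) by the edgeR quasi-likelihood test. Without library 2 of the second knockout the latter was 0.28 with an adjusted p of 0.0526, and without libraries 2 and 4 it was 0.30 with an adjusted p of 0.0723. Between the control sets ERO1LB differed by -0.48 ± 0.09, lower in the SLC30A10 control. ERO1LB and DNAJB9 were the 2 members that passed in the same direction in both knockouts. Of all genes 7.82% passed in both, and 4.02% in the same direction. Of the members 0 passed in opposite directions, where 3.8% of all genes did.

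Of the 5 sensors and regulators, ERN1 and EIF2AK3 rose in the SLC30A10 knockout and ATF6, XBP1 and WFS1 did not pass, 40% called where 41.4% of all genes were. ERN1, the kinase and RNase IRE1, rose in the SLC30A10 knockout to 16.2, 14.7, 15.6 and 16.5 CPM from 12.3, 12.9, 12.9 and 14.3 CPM, without overlap. Its log2 fold change was 0.27 ± 0.08 with an adjusted p of 0.00701 by edgeR. Against both control sets pooled it was 0.11 with an adjusted p of 0.182, and the second control set lay higher, at 16.9, 18.1, 14.7 and 15.3 CPM. The second knockout had 16.9, 18.3, 16.5 and 17.7 CPM for ERN1, a log2 fold change of 0.09 ± 0.07 that did not pass (adjusted p 0.462). The effects of the knockouts on ERN1 were not shown to differ (0.17 ± 0.11, adjusted p 0.233).

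EIF2AK3, the kinase PERK, rose in the SLC30A10 knockout from 13.0, 12.9, 13.1 and 13.5 CPM to 15.4, 17.96, 16.2 and 16.4 CPM. The groups did not overlap, and the log2 fold change was 0.33 ± 0.08 with an adjusted p of 0.00189 by edgeR. In the second experiment the control libraries had 13.5, 13.6, 13.6 and 15.9 CPM and the knockout 10.4, 12.2, 12.6 and 13.6 CPM, with knockout library 4 reaching the control. The log2 fold change was -0.21 ± 0.08, with an adjusted p of 0.0912, and without that library it was -0.27 with an adjusted p of 0.0454. The difference of the effects was 0.54 ± 0.12, with an adjusted p of 0.000695. EIF2AK3 was the only member whose change was higher in the SLC30A10 knockout than in the second past the threshold. Its control sets did not differ past the threshold, at -0.11 ± 0.08.

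ATF6, the sensor that becomes a transcription factor, had 61.7, 70.8, 62.2 and 62.3 CPM in the SLC30A10 knockout and 59.4, 60.0, 59.0 and 59.8 CPM in its control. All knockout libraries lay above the control, yet the log2 fold change of 0.11 ± 0.05 had an adjusted p of 0.105 by edgeR, and library 2 accounts for the highest value. The second knockout had 76.7, 85.3, 72.4 and 83.8 CPM and its control 73.5, 76.9, 72.4 and 72.4 CPM, with a log2 fold change of 0.11 ± 0.05 and an adjusted p of 0.182. For ATF6 the control sets differed by -0.31 ± 0.05 on the log2 scale, more than either knockout did from its control. For ERN1 they differed by -0.31 ± 0.08, close in size to its change of 0.27 in the SLC30A10 knockout. That change and the control difference share the SLC30A10 control libraries. Both genes were lower in the SLC30A10 control set. WFS1, an ER membrane protein that restrains ATF6, was at 0.08 and -0.06 and passed in neither knockout.

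XBP1, the transcription factor downstream of IRE1, was measured as a gene total, which does not separate its spliced and unspliced mRNA. The SLC30A10 knockout had 94.8, 97.0, 98.2 and 103 CPM and its control 119, 119, 139 and 112 CPM. All knockout libraries lay below the control, and the log2 fold change of -0.31 ± 0.13 had an adjusted p of 0.0556 by edgeR. Among other settings of the fit the adjusted p ran from 9.52e-10 without a filter on low counts to 0.160 with DESeq2, while the log2 fold change stayed between -0.32 and -0.30. In the second experiment the control had 124, 130, 119 and 103 CPM and the knockout 131, 165, 105 and 223 CPM. Library 4 of that knockout was highest and library 3 lay inside the control range. The log2 fold change of 0.39 ± 0.13 passed with an adjusted p of 0.0403. It was 0.17 with an adjusted p of 0.262 without knockout library 4, 0.37 with an adjusted p of 0.102 without library 2, and -0.0089 without both, the last an alternative chosen after seeing the data. With the replicate number as a block it was 0.34 with an adjusted p of 0.0558. The call also did not hold without control libraries 1, 3 or 4, at adjusted p of 0.0547, 0.0774 and 0.140, nor with DESeq2, at 0.155, nor in a fit of only the 8 libraries compared, at 0.116. The effects of the knockouts differed by -0.70 ± 0.18 (adjusted p 0.00393), and by -0.31 with an adjusted p of 0.0369 without libraries 2 and 4.

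Of the 9 tested members of ER-associated degradation, 3 fell and 1 rose in the SLC30A10 knockout, or 44.4%, near the 41.4% of all genes. In the second knockout 0 of the 9 passed by the edgeR quasi-likelihood test and 0 by DESeq2, and 3 had an unadjusted p under 0.05. HERPUD1, a membrane protein that links substrates to the SEL1L-SYVN1 ubiquitin ligase, had the widest span of the members within the second knockout. It had 23.3, 22.7, 27.3 and 24.0 CPM in the SLC30A10 knockout and 32.9, 34.7, 39.9 and 38.5 CPM in its control, without overlap. On the log2 scale the change was -0.58 ± 0.22 with an adjusted p of 0.0379 by edgeR. That call did not hold with DESeq2, at an adjusted p of 0.0916, and with a library of this experiment left out it held in 2 of 8 fits, those without knockout library 3 or control library 1. Over the 8 fits the adjusted p lay between 0.0449 and 0.0869 and the log2 fold change between -0.64 and -0.54. In the second experiment HERPUD1 had 54.2, 62.3, 56.2 and 33.7 CPM in the control and 49.1, 73.5, 44.9 and 123 CPM in the knockout. Those groups overlapped, library 4 of the knockout being highest and library 4 of the control lowest. The log2 fold change of 0.49 ± 0.20 had an adjusted p of 0.101. It passed with no filter (9.48e-16), with pooled controls (0.74, adjusted p 0.00122), and without knockout library 1 (0.64, 0.0230) or 3 (0.67, 0.0115), and it was -0.13 with an adjusted p of 0.642 without knockout libraries 2 and 4. Of the 20 tested genes nearest to HERPUD1, 8 were lower and 2 higher in the SLC30A10 knockout, with a median of -0.15. The difference of the effects was -1.08 ± 0.30 (adjusted p 0.00650), the widest among the members. Without libraries 2 and 4 it was -0.46 with an adjusted p of 0.0610.

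The remaining degradation genes stayed within a narrow range. DERL2, part of the channel for export to the cytosol, fell by 0.20 ± 0.07 and EDEM3, a mannosidase-like factor that marks misfolded glycoproteins, fell by 0.15 ± 0.05 in the SLC30A10 knockout. EDEM1, a relative of EDEM3, rose by 0.18 ± 0.07. With a library left out the calls held in 5 of 8 fits for DERL2, 6 of 8 for EDEM3 and 2 of 8 for EDEM1. Without control library 3 DERL2 was at -0.13 with an adjusted p of 0.113. EDEM1 also had its highest level in library 4 of the second knockout, at 67.0 CPM against 48.9 to 56.3 CPM in the other libraries of that group. SEL1L and SYVN1, the core of the ligase, EDEM2, DERL1 and OS9, a lectin that delivers substrates to it, lay between -0.11 and 0.02 and did not pass in either knockout. The further entry DERL3-2 was at 0.02 in the SLC30A10 knockout and at 0.27 ± 0.09 in the second (adjusted p 0.0411).

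Of the translocation and export members, SEC24D changed and the others did not pass. SEC24D selects cargo for COPII vesicles that leave the ER. It fell from 34.7, 37.0, 37.0 and 36.6 CPM to 22.4, 22.3, 22.01 and 25.6 CPM in the SLC30A10 knockout, a log2 fold change of -0.65 ± 0.06 with an adjusted p of 1.78e-09 by edgeR. In the second experiment the knockout had 31.3, 30.4, 27.5 and 28.999 CPM and the control 31.0, 30.7, 28.5 and 28.4 CPM, with a log2 fold change of 0.00 ± 0.06. The difference of the effects was -0.65 ± 0.09 (adjusted p 1.27e-06). The gene lies at chr4:118722823-118836126 of GRCh38.p14, and its neighbours moved with it. Of the 20 nearest tested genes, 10 on each side, 13 were lower past the threshold in the SLC30A10 knockout and 0 higher, with a median log2 fold change of -0.43. Of the same 20 genes, 6 were lower and 1 higher in the second knockout, with a median of -0.09. The part of the neighbourhood in the change of SEC24D was not tested. SEC61B, a subunit of the translocation channel, and SSR1, of the translocon-associated protein complex, were at 0.02 and -0.08.

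Members with and without a stress element in their window were counted side by side, and the difference was not tested. In the SLC30A10 knockout 1 of the 11 carriers rose and 5 fell, with a median log2 fold change of -0.10. Of the 21 members with neither element 3 rose and 7 fell, with a median of -0.08. Of all tested genes 21.2% rose and 20.2% fell in that knockout, and 6.67% rose and 7.03% fell in the second. The carriers ERO1LB and XBP1 rose in the second knockout and 0 fell, and of the members with neither element 0 rose and 1 fell, with medians of -0.07 for carriers and -0.06 for the others. HERPUD1, with its ERSE-II and ATF4-type site, and XBP1, with its ERSE, were the carriers whose changes differed most between the knockouts, while HSPA5, also with an ERSE, lay at -0.14 and -0.13.

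Since the controls of both experiments share an identifier, their comparison shows how far control cells differed between the experiments. Of the 35 members, 17 differed past the threshold, of which the SLC30A10 control set had 12 higher and 5 lower, or 48.6%, where 39.3% of all genes differed, 18.5% higher and 20.8% lower. The libraries did not overlap for 17 members and for 36.3% of all genes. At 1.5-fold or more there were 0 members (edgeR quasi-likelihood; 17 without the fold limit) and 5.64% of all genes. HSPA5 differed most, followed by ERO1LB (-0.48 ± 0.09), DNAJB11 (0.35 ± 0.06), ERN1 (-0.31 ± 0.08), ATF6 (-0.31 ± 0.05) and SEC24D (0.29 ± 0.06) on the log2 scale (edgeR quasi-likelihood, all past the threshold). HERPUD1 was at -0.50 ± 0.21 with an adjusted p of 0.0566. It passed with no filter on low counts (adjusted p 4.78e-15), with the replicate number as a block (-0.47, 0.000772), with only the libraries compared (-0.49, 0.00412) and without second control library 4 (-0.65, 0.0131). The summed level of all 36 members was 7151 to 7886 CPM in the SLC30A10 control, 6818 to 7043 CPM in its knockout, 6774 to 6881 CPM in the second control and 6422 to 6722 CPM in the second knockout.

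This comparison shares the SLC30A10 control libraries with that of the SLC30A10 knockout, so the signs of both can be set side by side but do not support each other. Of the 13 members lower in that knockout, 8 had a higher level in the SLC30A10 control than in the second control: HSP90B1, HYOU1, DNAJB11, MANF, PDIA4, P4HB, DERL2 and SEC24D. Of the 4 that rose, ERO1LB, ERN1 and EDEM1 had a lower level there. Against both control sets pooled, 9 members passed in the SLC30A10 knockout, 1 higher and 8 lower, and 6 of these were among the 17 named above. In that setting HSPA5 was at 0.12, DNAJB11 at 0.02 and MANF at 0.02 on the log2 scale, and none of these passed. Against the pooled controls 21 members passed in the second knockout. Whether the changes belong to the deletion, to the clones used or to the cultures cannot be told apart for any member. For members whose control sets differ, the value also depends on the control set chosen.

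The effects of the knockouts differed past the threshold for 5 of 35 members, 14.3%, where 31.3% of all genes differed, 16.7% with the higher value in the SLC30A10 knockout and 14.6% with the lower. At 1.5-fold or more there were 3 members and 11.4% of all genes. Beside EIF2AK3, XBP1, HERPUD1 and SEC24D this was P4HB, at -0.15 ± 0.06 with an adjusted p of 0.0453 by edgeR, and at -0.17 with an adjusted p of 0.0707 without second knockout libraries 2 and 4. With a library left out the call of P4HB held in 6 of 16 edgeR fits, at adjusted p from 0.00886 to 0.0951. P4HB fell in the SLC30A10 knockout, from 435 to 505 CPM down to 409 to 445 CPM, and was at 422 to 436 CPM against 409 to 442 CPM in the second experiment.

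Neighbouring parts of the pathway were counted in the same way, over lists of genes that are not members. The PERK-ATF4-CHOP arm, the branch that reduces translation and induces amino acid and death-related genes, was counted in each knockout. In the SLC30A10 knockout 0 of its 13 tested genes rose and 3 fell, with a median log2 fold change of -0.20. That is 23.1% called, below the 41.4% of all genes. ATF4, the transcription factor of the arm, fell from 542, 547, 582 and 559 CPM to 357, 366, 347 and 348 CPM, a log2 fold change of -0.65 ± 0.09 with an adjusted p of 1.01e-06 by edgeR. ASNS, asparagine synthetase, fell by 0.83 ± 0.17 and DDIT4, an inhibitor of mTOR signalling, fell by 0.69 ± 0.20. DDIT3, which encodes CHOP, was at 13.4 to 14.8 CPM in the knockout and 13.8 to 15.7 CPM in the control. The kinase gene EIF2AK3 thus rose in libraries in which ATF4 fell.

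In the second knockout 5 of the 13 rose, DDIT3, ATF3, ASNS, SESN2 and CEBPB, and CHAC1 fell, 46.2% called where 13.7% of all genes were, with a median of 0.34. By DESeq2 with all libraries the counts were 1 higher and 1 lower. Without knockout libraries 2 and 4 they were 0 and 1, an omission chosen after seeing the data. Those libraries held the highest levels of the 5 risen genes, and fewer libraries weaken the test. Values without them therefore had to be lower, and the lost calls decide nothing. DDIT3 had 28.02, 31.9, 28.2 and 19.0 CPM in the control and 27.4, 43.2, 23.8 and 72.9 CPM in the knockout, a log2 fold change of 0.64 ± 0.20 with an adjusted p of 0.0349 by edgeR. The groups overlapped. The call was lost with DESeq2 (adjusted p 0.138), with the replicate number as a block (0.0695), with only the libraries compared (0.120), and without control library 1 (0.0538), 3 (0.0592) or 4 (0.138). Without knockout library 2 the adjusted p was 0.0752 and without library 4 it was 0.297, at 0.24, and without both the value was -0.06 with an adjusted p of 0.836. ATF3, a transcription factor induced by ATF4, had 44.8, 56.9, 29.2 and 75.5 CPM in the knockout and 23.0 to 39.5 CPM in the control, and ASNS had 270, 272, 135 and 364 CPM against 105 to 181 CPM. Without libraries 2 and 4 ATF3 was at 0.11 and ASNS at 0.46, and neither passed. ATF4 itself was at 0.20 ± 0.09 with an adjusted p of 0.128, and without knockout library 3 at 0.34 with an adjusted p of 2.22e-05.

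CHAC1, a glutathione-degrading enzyme usually induced through ATF4, did the opposite. Its control libraries had 37.5, 43.8, 36.3 and 14.8 CPM and its knockout libraries 1.18, 0.675, 0.727 and 0.969 CPM, without overlap. On the log2 scale the change was -5.21 ± 0.29 with an adjusted p of 1.33e-13 by edgeR, and -5.10 without libraries 2 and 4. In the SLC30A10 experiment CHAC1 had 3.48 to 4.92 CPM in the knockout and 4.39 to 5.55 CPM in the control.

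XBP1 and HERPUD1 shared the order of the second knockout libraries with genes of this arm, a pattern named after its values were seen. From high to low it was libraries 4, 2, 1 and 3 for XBP1, HERPUD1, DDIT3, TRIB3, ATF3, ASNS, SESN2 and CEBPB, and for UBE2J1, ERLIN1, SEC63 and PPP1R15B, 12 of the 161 tested genes of all lists. Another order, 1, 2, 4 and 3, was more frequent, with 17 genes, whose highest library was at most 1.23-fold above the lowest. Of the 12 genes, the 8 named first spanned more than 2-fold, and 0 of the listed genes with any other order did. In that group TRIB3, a repressor of ATF4 activity, ranged from 30.9 to 104 CPM. SESN2, a stress-induced regulator of mTOR, ranged from 51.3 to 156 CPM, and CEBPB, a transcription factor, from 23.7 to 70.4 CPM. HERPUD1 spanned 2.74-fold within that group and XBP1 2.12-fold, whereas HSPA5 spanned 1.18-fold with library 3 highest and HSP90B1 1.10-fold with library 1 highest. Library 4 of the second control was the lowest of its group for the same 8 genes named first and for CHAC1. These libraries were labelled as replicates, and what else differed between them is not given in the sources used here. The order was not counted over the other tested genes, so whether it is particular to these genes was not tested. Over all tested genes, pairs of second knockout libraries differed by 2.83 to 6.65 in chi-square per degree of freedom.

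**Figure D4:**
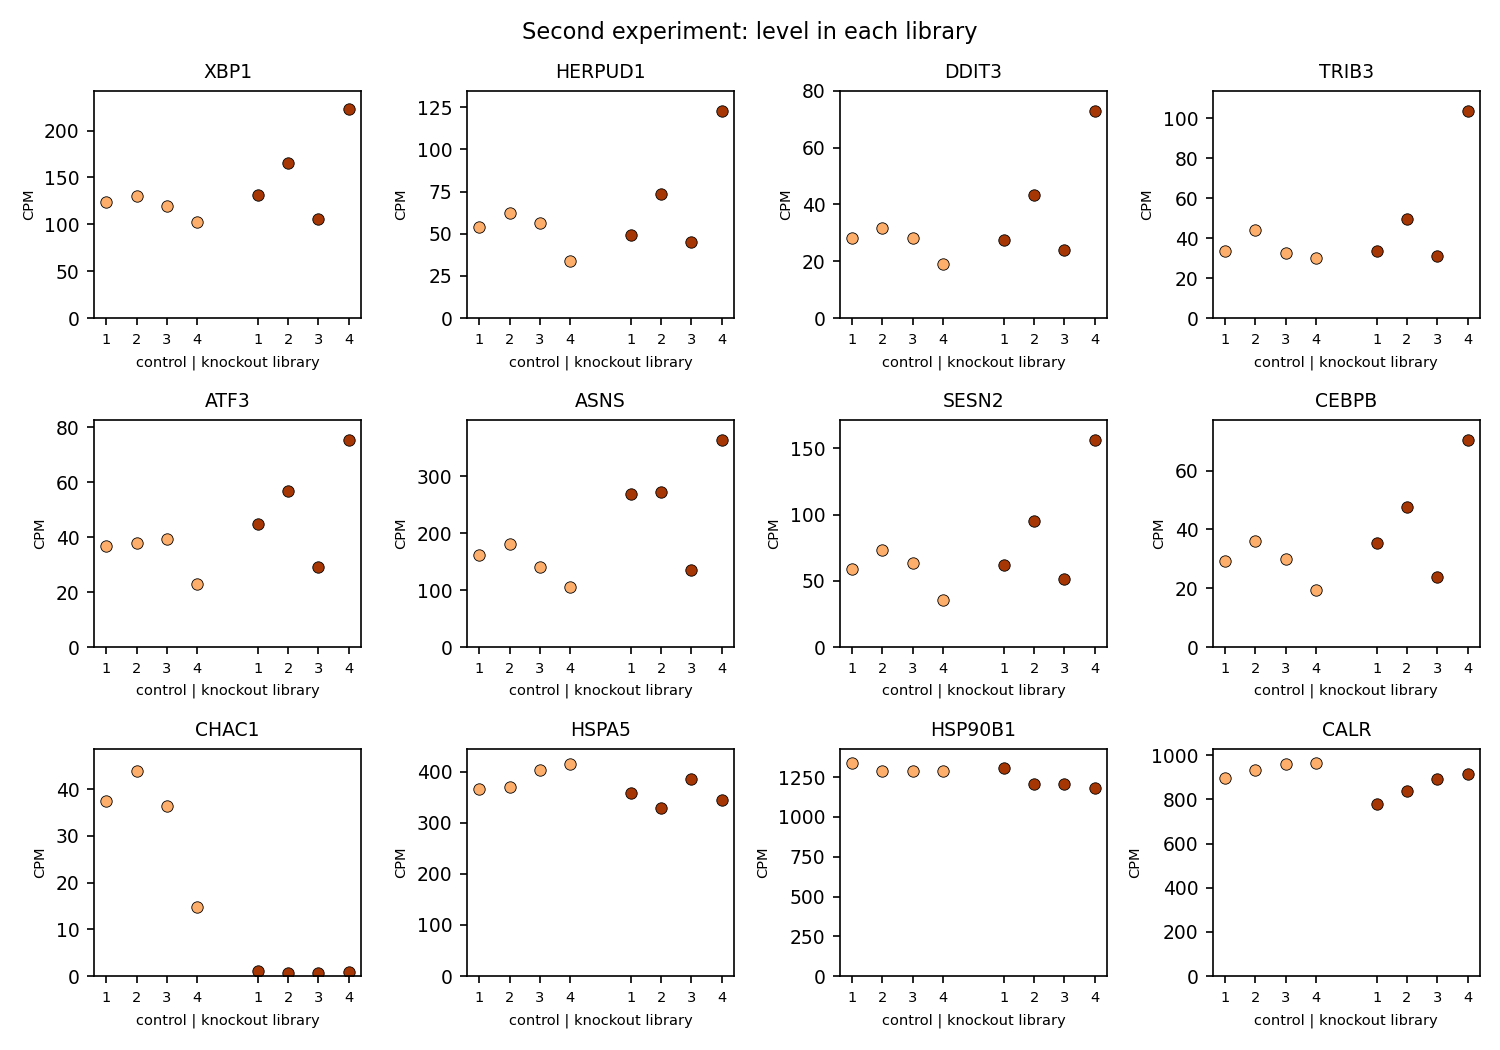
Level in CPM of 12 genes in the 4 control (light) and 4 knockout (dark) libraries of the second experiment, each axis starting at 0. Knockout libraries 4 and 2 are highest for XBP1, HERPUD1, DDIT3, TRIB3, ATF3, ASNS, SESN2 and CEBPB, CHAC1 is near 0 in all 4, and HSPA5, HSP90B1 and CALR do not follow that order.

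Cytosolic heat shock genes, the counterpart of the ER chaperones outside the organelle, had more calls higher than lower in the SLC30A10 knockout. There 7 of 12 tested genes rose and 2 fell, with a median log2 fold change of 0.19, where 21.2% of all genes were higher and 20.2% lower. HSP90AA1, the inducible cytosolic Hsp90, rose by 0.34 ± 0.04 (adjusted p 4.60e-08), HSPB1, a small heat shock protein, rose by 0.31 ± 0.05 and BAG3, a co-chaperone of Hsp70, rose by 0.33 ± 0.05 (edgeR quasi-likelihood). The second knockout gave 0 higher and 4 lower, among them DNAJB1 at -0.30 ± 0.07, DNAJA1 at -0.29 ± 0.09 and HSPH1 at -0.23 ± 0.07. Of all genes 6.67% were higher there and 7.03% lower. With all libraries DESeq2 gave 2 calls, and 6 genes had an unadjusted p under 0.05. Without second knockout libraries 2 and 4, left out after seeing the data, the list gave 0 calls (edgeR quasi-likelihood). DNAJB1, DNAJA1 and HSPH1 were then at -0.15, -0.14 and -0.19. With a single library left out the call of DNAJB1 held in 8 of 8 fits, and those of DNAJA1 and HSPH1 in 4 of 8 each. The summed level of the list was 14276 to 14709 CPM in the SLC30A10 knockout, 11676 to 13564 CPM in its control, 10622 to 11242 CPM in the second control and 10025 to 10792 CPM in the second knockout. The SLC30A10 control set was higher than the second control set for 9 of the 12, and for 18.5% of all genes.

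The translocon, signal peptidase and oligosaccharyltransferase list had 24 tested genes. Of these 10 fell and 3 rose in the SLC30A10 knockout and 11 did not pass, with a median log2 fold change of -0.11, where 20.2% of all genes fell and 21.2% rose. STT3B, a catalytic subunit of the oligosaccharyltransferase, fell by 0.25 ± 0.04. SSR4 rose by 0.62 ± 0.05 and SEC61A2, a form of the channel subunit, rose by 0.36 ± 0.05. SSR4 lies on the X chromosome among 20 tested neighbours of which 15 were higher. Of the second knockout's calls in this list 1 was higher, SEC63 at 0.17 ± 0.05. The 2 lower were the signal peptidase subunits SEC11A at -0.22 ± 0.04 and SEC11C at -0.23 ± 0.07. These calls made up 12.5% of the list, where 13.7% of all genes passed. SEC63 was at 0.08 without libraries 2 and 4 and did not pass.

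Other ER folding enzymes were mixed, with 4 of 30 higher and 5 lower in the SLC30A10 knockout, a median of -0.0026. That is 30% called, below the 41.4% of all genes. In the second knockout 1 was higher and 1 lower, or 6.67% called where 13.7% of all genes were. CLGN, a calnexin relative, rose by 0.51 ± 0.08, and PRDX4, an ER peroxiredoxin, rose by 0.41 ± 0.05 among X-linked neighbours of which 16 of 20 were higher. GANAB, the catalytic subunit of glucosidase II, fell by 0.26 ± 0.03. SERPINH1, the collagen chaperone, was at -0.21 ± 0.06 and -0.26 ± 0.06 in the knockouts, past the threshold in both (without libraries 2 and 4 the second was -0.22, adjusted p 0.0721), and FKBP11 rose by 0.19 ± 0.06 in the second. For other ER-associated degradation genes 3 of 23 rose and 5 fell in the SLC30A10 knockout, 34.8% called where 41.4% of all genes were. DNAJB2 was at 0.41 ± 0.06, FAM8A1 at 0.31 ± 0.04 and SVIP at -0.40 ± 0.06. UBE2G2, at 0.14 ± 0.04, was the only gene of this list past the threshold in the second knockout, 4.35% against 13.7% of all genes.

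COPII coat genes gave 2 higher and 3 lower of 11 in the SLC30A10 knockout, 45.5% called where 41.4% of all genes were. Their median was -0.01, with no value beyond 0.17 in size, so the fall of SEC24D was not shared by them. SEC31A was at -0.16 ± 0.04, PREB at 0.17 ± 0.05 and SEC23B at 0.14 ± 0.04. The second knockout gave SEC16A at 0.19 ± 0.05 and SEC24A at -0.14 ± 0.05 past the threshold, 18.2% where 13.7% of all genes passed. Neither passed without libraries 2 and 4. With a single library left out the call of SEC16A held in 6 of 8 fits and that of SEC24A in 1 of 8. Among other transcription factors and regulators of the response 1 of 13 rose and 4 fell in the SLC30A10 knockout, 38.5% called, near the 41.4% of all genes. MBTPS1, the protease that cuts ATF6 in the Golgi, fell by 0.66 ± 0.04 (adjusted p 4.27e-14), and MBTPS2, the protease of the following cut, rose by 0.34 ± 0.06 (edgeR quasi-likelihood). For MBTPS1, on chromosome 16, 16 of 20 tested neighbours were lower, with a median of -0.54, and for MBTPS2, on the X chromosome, 17 of 20 were higher, with a median of 0.39. CREB3L1 fell by 0.68 ± 0.14, at a low level of 2.87 against 4.61 CPM. In the second knockout 0 of these 13 passed by the edgeR quasi-likelihood test and 0 by DESeq2, and 2 had an unadjusted p under 0.05.

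**Figure D5:**
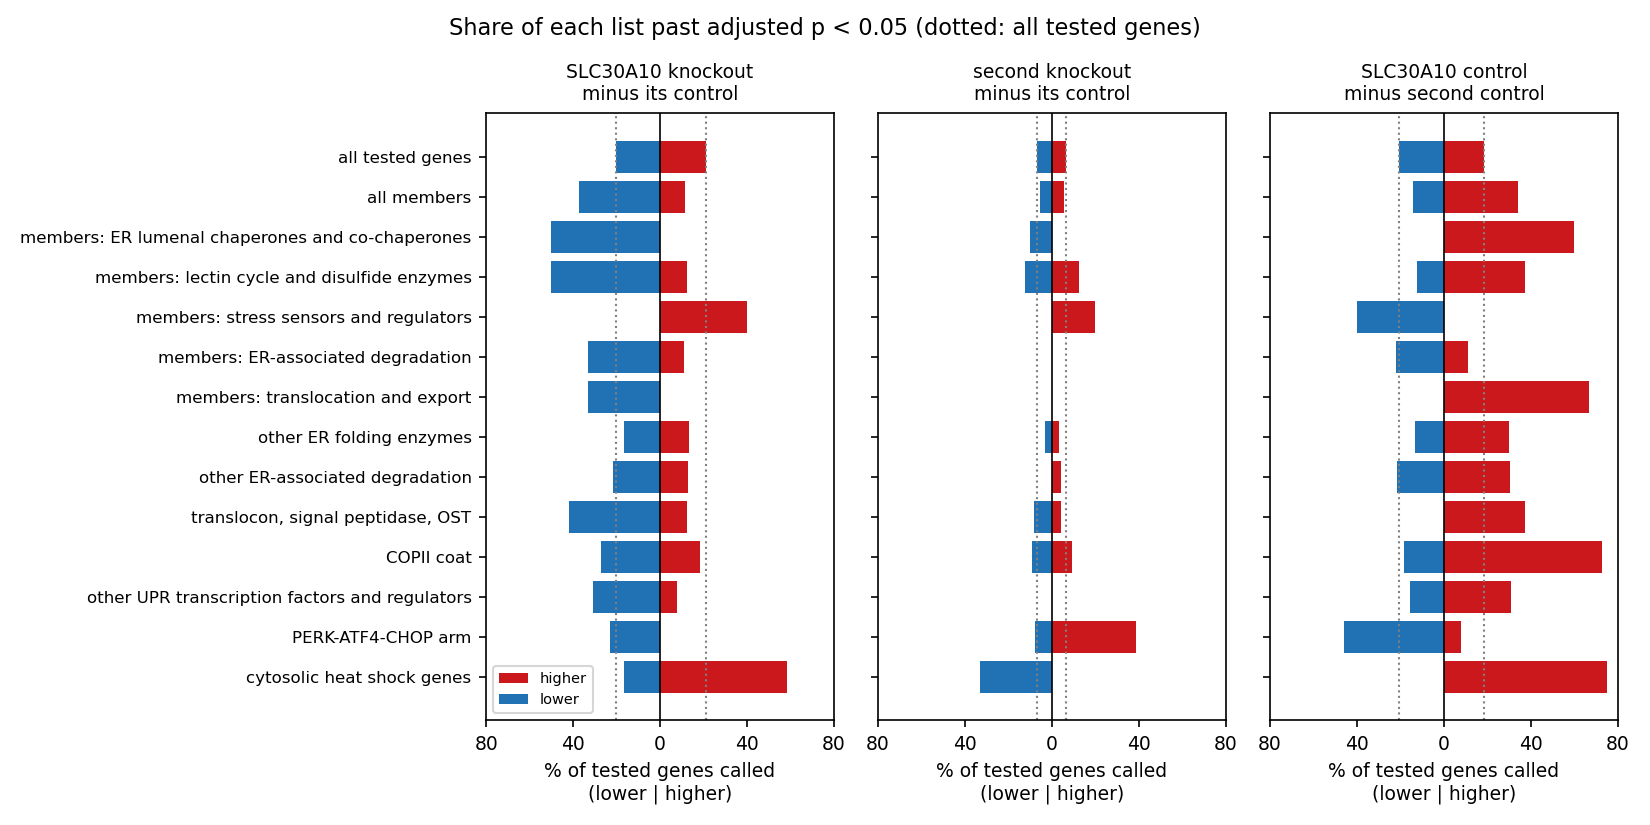
Percent of the tested genes of each list that were higher (right, red) or lower (left, blue) past an adjusted p of 0.05 in each comparison, with dotted lines at the percent of all tested genes. In the SLC30A10 knockout 5 of 10 lumenal chaperones are lower and 0 higher and 7 of 12 heat shock genes are higher, and the control sets differ for both lists.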

How the data were processed

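Poly-A RNA of 16 HAP1 libraries in 4 groups of 4 was sequenced from both ends on a DNA nanoball platform, per the labels' protocols. The authors deposited whole-number counts per gene symbol, which are not normalized. The submitters' processing notes name HISAT2, featureCounts, DESeq2 and hg38, without roles. The annotation and the use of strand are not given in the sources used here, so overlapping genes on opposite strands cannot be separated. Groups follow the genotype labels. The gene of the second knockout is not reported here, and the deposited normalized table was not used.

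From these counts, edgeR 4.0.16 (R 4.3.3) was used with its expression filter (minimum count 10, minimum total 15), TMM scaling and 1 fit of all 16 libraries with 4 group means. Quasi-likelihood tests were adjusted by the Benjamini-Hochberg method over all 15569 tested genes, at a threshold of 0.05. SEs were derived from the F statistic. Replicate pairs differed by 1.62 to 6.65 in chi-square per degree of freedom, and none was treated as a repeat. The procedure was tested on simulated counts, where 47 of 50 genes lowered by 1 on the log2 scale were recovered and 8 of 15369 unchanged genes were called.

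The members and lists were chosen with earlier results of these data known. Named were 8 fixed members, members past the threshold with a log2 fold change of at least 0.5 in size, from each other list up to 3 genes of lowest adjusted p per knockout, and ATF4, DDIT3 and CHAC1. Other members are described by role, and further genes are named as chosen after their values were seen. Alternatives were median-of-ratios factors, library totals, the DESeq2 1.42.0 Wald test, no filter, a minimum mean count of 50, a threshold of 0.01, a minimum fold of 1.5, the replicate number as a block, fits of only the libraries compared, pooled controls and omission of each library. Omission of second knockout libraries 2 and 4 together was chosen after seeing the data. Promoters and gene positions come from RefSeq (GRCh38.p14), and exon lengths from GENCODE. Neighbours were found for the 91.4% of tested genes that could be placed.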

Additional observations from a re-analysis of the deposited data

Results flagged for a closer look

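Among 48 sets of 4 libraries, 5 held a library far from the other 3, where the gap to the nearest library, divided by the range of the 4, exceeds Dixon's critical value. Chance alone would give 2.4. HSP90B1 was at 1342 CPM in library 1 of the second control and at 1287 to 1292 CPM in the others (0.91 of the range). ATF6 was at 70.8 CPM in library 2 of the SLC30A10 knockout and at 61.7 to 62.3 CPM in the others (0.939). EIF2AK3 was at 15.9 CPM in library 4 of the second control and at 13.5 to 13.6 CPM in the others (0.951). SEC24D stood out in library 1 of the SLC30A10 control, at 34.7 CPM against 36.6 to 37.01 (0.838), and in library 4 of the SLC30A10 knockout, at 25.6 CPM against 22.01 to 22.4 (0.882).

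The effects of the knockouts differed by a test of the difference itself for 5 members. The differences, SLC30A10 knockout minus second knockout on the log2 scale, were -0.152 for P4HB, 0.542 for EIF2AK3, -0.703 for XBP1, -1.08 for HERPUD1 and -0.65 for SEC24D. Among the named genes of the PERK arm they were -0.857 for ATF4, -1.65 for ASNS, -1.03 for DDIT4, -0.734 for ATF3 and 5.004 for CHAC1, and DDIT3 did not pass.

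Named genes of the other lists that passed the same test were all among those picked for a small adjusted p in a knockout. Cytosolic heat shock genes were at 0.309 for HSP90AA1, 0.376 for HSPB1, 0.332 for BAG3, 0.612 for DNAJB1, 0.457 for HSPH1 and 0.342 for DNAJA1. Folding enzymes were at 0.449 for PRDX4, -0.188 for GANAB and 0.547 for CLGN. Degradation genes were at 0.381 for DNAJB2, 0.275 for FAM8A1, -0.332 for SVIP and -0.283 for UBE2G2. Translocation genes were at 0.659 for SSR4, 0.351 for SEC61A2, -0.29 for STT3B, -0.428 for SEC63 and 0.343 for SEC11C. COPII genes were at -0.228 for SEC31A, 0.253 for SEC23B and -0.326 for SEC16A. Regulators were at -0.707 for MBTPS1, 0.322 for MBTPS2 and -0.773 for CREB3L1.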

How the results depend on the processing

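The number of members past the threshold depended on the settings. In the SLC30A10 knockout it was 17, and it was 9 with both control sets pooled, 8 at an adjusted p under 0.01, 1 at a fold of at least 1.5, and 9 to 17 with a library left out. In the second knockout it was 4, and it was 7 with no filter on low counts, 21 with pooled controls, 2 at an adjusted p under 0.01, 0 at 1.5-fold (edgeR quasi-likelihood), 2 without libraries 2 and 4, and 2 to 8 with a library left out. Between the control sets it was 17, 0 at 1.5-fold, and 14 to 19 with a library left out. For the difference of the knockouts it was 5, 3 at 1.5-fold, and 4 to 7 with a library left out. Fits of only the libraries compared give no value for that difference. Of the alternative values of named genes, 1679 kept direction and side of the threshold, 153 no longer passed, 39 newly passed and 47 changed sign.

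Sign changes were near 0 in most cases. In the SLC30A10 knockout with pooled controls HSPA5 was at 0.12, ATF6 at -0.046, DNAJB11 at 0.021 and MANF at 0.017. In the second knockout SEC24D was at 0.0080 with library totals and 0.0036 at a mean count of at least 50, and FKBP11 was at -0.0095 with pooled controls. Without libraries 2 and 4 HERPUD1 was at -0.13, XBP1 at -0.0089 and DDIT3 at -0.061. For the difference of the knockouts HSPA5 was at 0.0017 with the replicate block. DNAJB9 was at -0.0081 with library totals and -0.0062 without libraries 2 and 4. ATF6 was at -0.0049 with median-of-ratios factors, -0.0049 with DESeq2, -0.024 with library totals and -0.0040 at a mean count of at least 50. With a library left out SEC24D ran from -0.027 to 0.031 in the second knockout. Between the control sets DNAJB9 ran from -0.086 to 0.012 and XBP1 from -0.026 to 0.088. For the difference HSPA5 ran from -0.060 to 0.059, HSP90B1 from -0.033 to 0.013, DNAJB9 from -0.047 to 0.058 and ATF6 from -0.050 to 0.028. The cause of these changes was not tested.

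With the replicate block the counts were 18, 4, 19 and 5. Libraries of the same number did not deviate together: mean correlations of deviations were -0.0361 for the SLC30A10 experiment, 0.0591 for the second and 0.0278 for the control sets, so the pairing rests on the number alone. The entry under the plain symbol DERL3, with at most 1 count in a library, was too shallow to test.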
